A study of Mus musculus with 18 samples.

Results

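RNA of whole lung from β-arrestin 1 −/− mice, which lack the product of Arrb1, was compared with RNA of wild type lung, both kept in normoxia. The comparison holds the 6 libraries titled B1N and WTN, 3 of each genotype, of 18 in the whole study. The other 12 libraries are 3 of each of these genotypes after chronic hypoxia and 6 of a line labelled β-arrestin 2 −/−, 3 in each exposure. All 18 came from male C57BL/6 mice that were 8 to 12 weeks old at the start and 12 to 16 weeks old at the end of 4 weeks of exposure. Normoxia meant room air at about 150 mmHg of oxygen, and hypoxia the pressure of an altitude of 18000 feet, at about 70 mmHg. No drug, transgene or Cre driver is named for any group. The labels do not say how either allele was made, how often the lines were crossed to C57BL/6, or whether every library comes from a separate animal. The p-values therefore reflect how far these libraries scatter, which may be technical.

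β-Arrestins are adaptor proteins that bind G protein-coupled receptors once receptor kinases have phosphorylated them. Binding ends the coupling to G proteins, draws the receptor into clathrin-coated pits and links it to kinases such as those of the ERK and Src pathways. The ubiquitous members are β-arrestin 1, encoded by Arrb1, and β-arrestin 2, encoded by Arrb2, and in the lung their receptors include the adrenergic, endothelin and angiotensin receptors that set the tone of airways and vessels.

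The 6 libraries held 21143430 to 23866127 estimated fragments, and 15388 genes were tested. Levels are in CPM, counts relative to the scaled library total, and replicates carry the numbers 0, 1 and 2. Lung markers were high in all 6 libraries: Sftpb, a surfactant protein, stood at 2728 to 3425 CPM, Ager, a receptor of alveolar type 1 cells, at 2935 to 4113, and Pecam1, an endothelial adhesion molecule, at 1135 to 1307. Genes of cardiac muscle, which mouse pulmonary veins also contain, moved with genotype. The summed level of 38 cardiac genes was 679, 192 and 689 CPM in wild type and 3142, 2334 and 1165 in β-arrestin 1 −/− replicates 0 to 2, so the groups did not overlap. Wild type replicate 1 nearly lacked such RNA, with 0.765 CPM of Myh6, a cardiac myosin heavy chain, against 106 and 111 in the other wild type libraries. A score of cardiac, airway secretory and adipocyte genes, used as a covariate in an alternative fit, ran from -1.96 to -0.957 in wild type and from -0.607 to 0.670 in β-arrestin 1 −/− (log2 relative to the mean of all 18 libraries). In bulk lung, fewer cells of a type and less RNA per cell cannot be told apart.

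The targeted gene was lower in every β-arrestin 1 −/− library. Arrb1 (chromosome 7, 99535486 to 99606771, mm10) gave 474, 464 and 478 CPM in wild type and 87.5, 118 and 107 in β-arrestin 1 −/−. The groups lay far apart, with 22.1% of the wild type mean left. The log2 change was -2.18 ± 0.12 (SE, adjusted p = 4.01e-08) by edgeR's quasi-likelihood test with Benjamini-Hochberg adjustment, which gives every adjusted p below. Log2 changes are given ± SE throughout. The SE is the size of the log2 change divided by the square root of that test's F statistic. Little of its sequence is shared, with 0.767% of the 50-base words of Arrb1 transcripts found in those of another gene. A total per gene does not show which exons the remaining fragments cover. In the normoxia libraries labelled β-arrestin 2 −/− Arrb1 stood at 262, 287 and 319 CPM, between the other groups.

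Arrb2, the other ubiquitous β-arrestin, was not called. It gave 31.5, 30.2 and 35.1 CPM in wild type and 31.1, 35.9 and 33.1 in β-arrestin 1 −/−, with overlapping groups and a log2 change of 0.05 ± 0.20 (SE, adjusted p = 0.994). Per length of transcript, Arrb1 was the more abundant of the pair in wild type, at a mean of 60.6 FPKM (fragments scaled to transcript length and depth) against 17.2 for Arrb2, and the less abundant in β-arrestin 1 −/−, at 13.4 against 18.1. The receptor kinases that prepare receptors for arrestin binding gave small differences, none of them called: 0.02 ± 0.08 for Adrbk1 (GRK2), 0.02 ± 0.10 for Adrbk2 (GRK3), -0.07 ± 0.11 for Grk5 and 0.03 ± 0.12 for Grk6 on the log2 scale. Arrdc4, an arrestin-domain protein regulated with glucose uptake, stood at 68.3, 57.3 and 58.2 CPM in wild type and 89.9, 66.9 and 80.7 in β-arrestin 1 −/−. Those groups overlapped, and its log2 change of 0.37 ± 0.10 had an unadjusted p of 0.00269 and an adjusted p of 0.219.

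Among all 15388 genes, 34 were called, which is 0.221% of those tested. In β-arrestin 1 −/− lung 12 were higher (0.078%) and 22 lower (0.143%), and 19 differed by more than 2-fold. The 3 libraries of each genotype did not overlap for any of the 34, where 22.6% of all genes tested show such separation. At an unadjusted p below 0.05 there were 1341 genes (8.71%). Besides Arrb1, 14 of the 33 others stayed called under each of the 12 other settings in which they could be tested and with each of the 6 libraries left out in turn: Cep85, Fam124a, Hdac1, Hmgn2, Megf6, Myo7a, Pcdhgb8, Rps6ka1, Sgcb, Slc45a4, Trim12a, Trim30d, Trim34a and Trim34b. The call of each of the other 19 was lost both with the tissue score as a covariate (adjusted p from 0.0615 to 0.564) and without β-arrestin 1 −/− replicate 0. The size of their log2 changes was 65.5% to 114% of that given here with the score (median 88.4%) and 77.1% to 106% without that library (median 93.1%), and no gene changed direction. Of the 34, 18 lay in 4 short stretches of the genome in which neighbouring called genes were at most 5 Mb apart, a spacing chosen after the positions were seen.

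The stretch with the largest changes was that of Arrb1 itself. Over 6.457 Mb of chromosome 7 (98051054 to 104507849) 6 of 87 genes tested were called, 5 of them lower, and all 6 were also called in the hypoxia libraries. On one side of Arrb1, 1.42 Mb away, was Myo7a, an unconventional myosin of sensory hair cells. It gave 21.1, 20.7 and 20.8 CPM in wild type and 5.26, 6.63 and 6.54 in β-arrestin 1 −/−, well separated, with a log2 change of -1.76 ± 0.12 (SE, adjusted p = 5.72e-07).

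On the other side, 4.64 to 4.86 Mb from Arrb1, lay 4 genes of a Trim cluster. Trim proteins carry a RING, B-box and coiled-coil domain, and those of this cluster are related to antiviral restriction factors and induced by interferon. Trim12a counted 359, 305 and 408 fragments in the wild type libraries and 1, 0 and 0 in the β-arrestin 1 −/− libraries. The ratio in CPM was 1122 (95% counting interval 201 to 44340.1). Trim30d counted 239, 226 and 349 fragments in wild type and 1, 3 and 2 in β-arrestin 1 −/−, a ratio of 142 (64.9 to 388). Both genes were thus nearly absent from all 3 β-arrestin 1 −/− libraries, with adjusted p = 1.14e-09 and 1.03e-08, and their fitted fold changes depend on the small count added to each library.

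The neighbours Trim34a and Trim34b went opposite ways. Trim34a gave 18.4, 15.8 and 17.6 CPM in wild type and 2.79, 2.21 and 2.33 in β-arrestin 1 −/−, a log2 change of -2.82 ± 0.21 (SE, adjusted p = 1.4e-06). Trim34b counted 2, 1 and 0 fragments in wild type and 37, 49 and 51 in β-arrestin 1 −/−, a ratio of 43.6 (14.6 to 214) with adjusted p = 0.000609. The copies are near-identical: 56.8% of the 50-base words of Trim34b transcripts also occur in Trim34a, so how the fragments were split between them is uncertain. The members beside them that were not called were Trim12c (0.33 ± 0.14), Trim30a (-0.37 ± 0.15), Trim6 (-0.67 ± 0.28) and Trim30b, whose levels of 0.550, 0.430 and 1.99 CPM in wild type and 0.0821, 0.0921 and 0 in β-arrestin 1 −/− did not overlap (adjusted p = 0.112). The change was therefore not shared by the whole cluster.

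**Figure D1:**
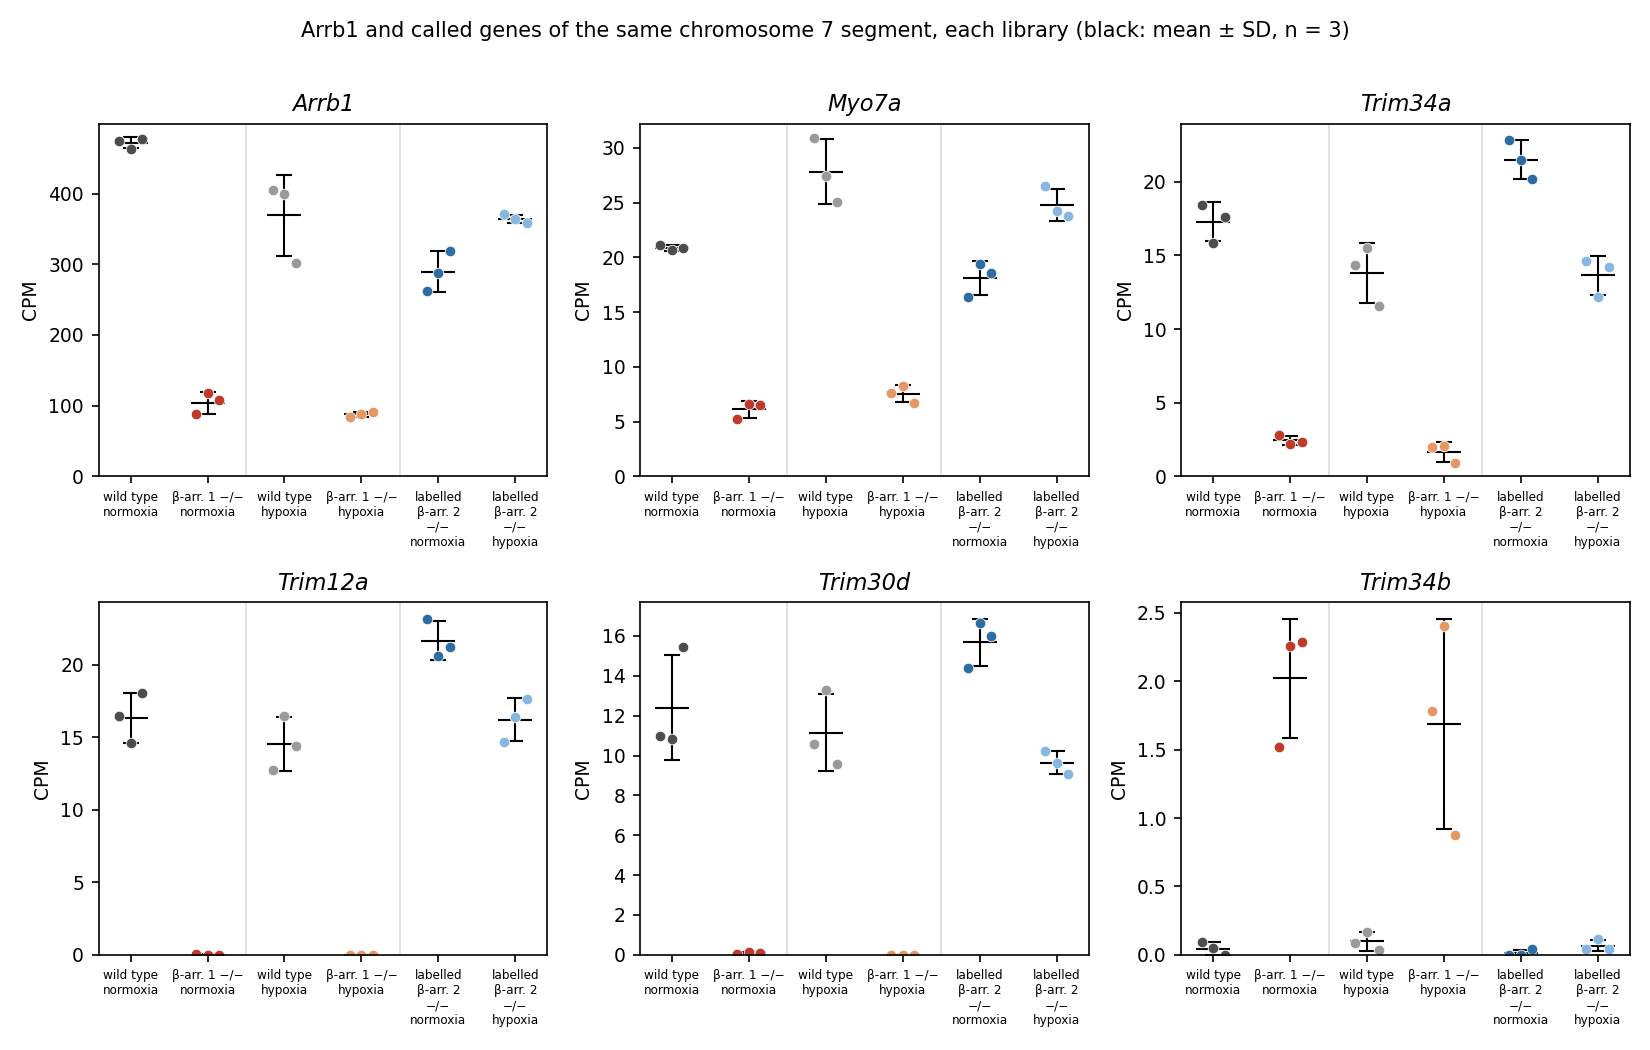
Level in CPM (linear axis from 0) of Arrb1, Myo7a and 4 Trim genes in each library of the 6 groups. Points are libraries and black marks are means with SD (n = 3). In Trim12a and Trim30d the β-arrestin 1 −/− libraries sit at or near 0 in both exposures, and the libraries labelled β-arrestin 2 −/− do not.

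The same genes were read in libraries that the normoxia comparison does not use. In hypoxia Trim12a counted 294, 389 and 376 fragments in wild type and 0 in each β-arrestin 1 −/− library, so it was at least 295-fold higher in wild type with a floor of 3 fragments over the group. Trim30d counted 244, 314 and 250 and again 0 in each, at least 225-fold higher. Myo7a gave 30.9, 27.4 and 25.1 CPM against 7.64, 8.25 and 6.69, and Trim34b 2, 4 and 1 fragments against 39, 55 and 14. All 4 therefore differed in hypoxia as they did in normoxia. The libraries labelled β-arrestin 2 −/− in normoxia held 23.2, 20.6 and 21.2 CPM of Trim12a, 14.4, 16.6 and 16.02 of Trim30d and 16.4, 19.4 and 18.6 of Myo7a. Wild type held 16.5, 14.6 and 18.03 CPM of Trim12a and 10.96, 10.8 and 15.4 of Trim30d, so that line did not share the near absence of these genes.

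The share of genes with a difference was also higher around Arrb1 than on the rest of its chromosome. Within 2 Mb of Arrb1, 12 of 56 other genes tested (21.4%) had an unadjusted p below 0.05, and at 2 to 5 Mb 13 of 45 (28.9%). Beyond 20 Mb the share was 66 of 899 (7.34%), near the 8.71% of all genes. Without the called genes the shares were 11 of 55 within 2 Mb and 9 of 41 (22.0%) at 2 to 5 Mb. In the hypoxia libraries, where the share over all genes was 11.3%, the same bins gave 17.9%, 26.7% and 8.12%. At 5 to 10 Mb the normoxia share was 10.2%, and at 10 to 20 Mb it was 6.72%, with 1 gene called there. That gene was Galnt18, an O-glycosylation enzyme homologue 11.9 Mb from Arrb1, with 300.4, 319.7 and 319 CPM in wild type and 198, 193 and 225 in β-arrestin 1 −/− (log2 change -0.61 ± 0.11, adjusted p = 0.0275). Its call was lost without wild type replicates 0, 1 or 2 or β-arrestin 1 −/− replicates 0 or 1 (adjusted p from 0.0607 to 0.199), and it was not called in hypoxia (-0.37 ± 0.11, adjusted p = 0.263). The normoxia libraries labelled β-arrestin 2 −/− held 167, 191 and 237 CPM of it, below each wild type library.

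**Figure D2:**
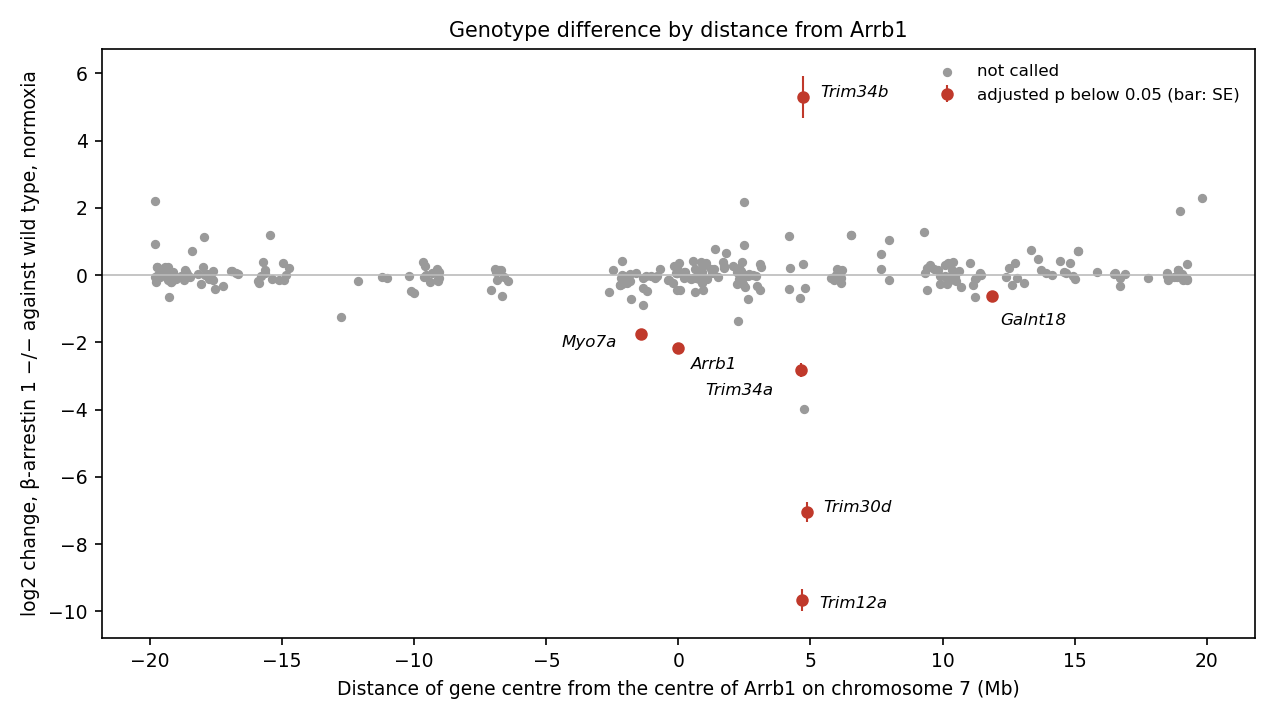
Log2 change in normoxia (β-arrestin 1 −/− against wild type) of each gene tested within 20 Mb of Arrb1, by distance from Arrb1 in Mb. Red points are called genes with SE and grey points are genes not called. Called genes sit between Myo7a at -1.42 Mb and the Trim cluster at 4.64 to 4.86 Mb, with Galnt18 alone farther out.

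A denser group of called genes lay on another chromosome. On chromosome 4, over 5.036 Mb (129516104 to 134552166), 8 of 93 genes tested were called, 5 higher and 3 lower in β-arrestin 1 −/−. Hmgn2, a protein that binds nucleosomes and loosens chromatin, gave 1.97, 2.20 and 2.56 CPM in wild type and 9.24, 8.38 and 8.61 in β-arrestin 1 −/− (log2 change 1.96 ± 0.19, adjusted p = 4.1e-05). Hdac1, a histone deacetylase, gave 6.01, 5.50 and 5.30 CPM in wild type and 22.1, 19.1 and 19.2 in β-arrestin 1 −/− (log2 change 1.84 ± 0.22, adjusted p = 0.000724). For both, every β-arrestin 1 −/− library held more than 3 times the level of every wild type library. Both have processed copies elsewhere: 35.5% of the 50-base words of Hdac1 transcripts and 25.4% of those of Hmgn2 occur in other genes, so their counts depend on how shared reads were assigned.

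Genes of the same stretch with less shared sequence also differed. Rps6ka1, the kinase RSK1 that acts downstream of ERK, rose from 53.98, 56.04 and 62.6 to 90.8, 107 and 101 CPM (log2 change 0.79 ± 0.11, adjusted p = 0.00329). Cep85, a centrosomal protein, rose from 9.45, 9.61 and 7.47 to 22.8, 23.2 and 16.7 (log2 change 1.24 ± 0.16, adjusted p = 0.00105). Sfn, the 14-3-3σ protein of epithelia, rose from 6.19, 5.79 and 4.86 to 30.5, 18.2 and 17.1 (log2 change 1.97 ± 0.35, adjusted p = 0.027). In none of the 3 did the genotypes overlap, and the Sfn call was lost without wild type replicates 0, 1 or 2 or β-arrestin 1 −/− replicate 0 (adjusted p from 0.078 to 0.181).

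The 3 lower genes of the stretch were Sepn1, Bai2 and Cd164l2. Sepn1, a selenoprotein of the endoplasmic reticulum, fell from 92.7, 91.1 and 97.8 to 62.05, 69.5 and 68.3 CPM (log2 change -0.50 ± 0.08, adjusted p = 0.011). Its call was lost without wild type replicate 2 or β-arrestin 1 −/− replicate 0 (adjusted p from 0.0693 to 0.133). Bai2, an adhesion G protein-coupled receptor, was low throughout, at 1.97, 3.25 and 2.78 CPM in wild type and 0.534, 0.737 and 0.896 in β-arrestin 1 −/− (log2 change -1.88 ± 0.34, adjusted p = 0.0286). Cd164l2, a homologue of the sialomucin CD164, was lower still, at 1.33, 1.24 and 1.24 CPM in wild type and 0.370, 0.369 and 0.224 in β-arrestin 1 −/− (log2 change -1.96 ± 0.31, adjusted p = 0.0097). The Bai2 call was lost without wild type replicates 1 or 2 or β-arrestin 1 −/− replicates 0, 1 or 2 (adjusted p from 0.0626 to 0.243), and that of Cd164l2 without β-arrestin 1 −/− replicates 0 or 2 (adjusted p from 0.0637 to 0.0767).

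Across the stretch 31.2% of genes tested had an unadjusted p below 0.05 in normoxia and 26.9% in hypoxia, and 16 of the 93 did so in the same direction in both, against 1.74% of all genes tested. The called genes are among those 16 and fixed the stretch in normoxia, so its normoxia share and the count of 16 are descriptions. The genes among the 16 that were not called in normoxia were Col16a1, E330017L17Rik, Fam46b, Fam76a, Sh3bgrl3, Tmem39b, Trnp1 and Xkr8. In hypoxia Hdac1 (2.19 ± 0.23), Hmgn2 (1.89 ± 0.18), Rps6ka1 (0.86 ± 0.11) and Sepn1 (-0.43 ± 0.08) were called again. The other 4 were not: Sfn (1.35 ± 0.34, adjusted p = 0.164), Cep85 (0.48 ± 0.15, adjusted p = 0.319), Bai2 (-1.37 ± 0.33, adjusted p = 0.152) and Cd164l2 (-1.41 ± 0.29, adjusted p = 0.0661).

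In normoxia all 5 higher genes also stood above each wild type library in the libraries labelled β-arrestin 2 −/−. Those libraries held 9.96, 10.9 and 10.7 CPM of Hmgn2, 15.99, 14.3 and 14.9 of Hdac1 and 23.2, 22.8 and 23.4 of Cep85. They held 90.1, 84.7 and 94.5 CPM of Rps6ka1 and 26.1, 15.7 and 14.5 of Sfn. In hypoxia Hdac1 overlapped, at 5.29, 12.4 and 10.5 CPM in that line and 4.52, 4.78 and 5.35 in wild type. Sfn also overlapped there, at 16.4, 17.1 and 14.2 CPM in that line and 7.73, 5.04 and 14.7 in wild type. Hmgn2, Cep85 and Rps6ka1 stayed above each wild type library in hypoxia. A direct test of β-arrestin 1 −/− against that line in normoxia, added after the values were seen, called none of the 5: Hmgn2 (0.375), Hdac1 (0.28), Cep85 (0.58), Rps6ka1 (0.446) and Sfn (0.701), the values being adjusted p. That test called 1.63% of all genes. Of the 3 lower genes it called Sepn1, with 80.7, 82.6 and 91.9 CPM in the other line (adjusted p = 0.0397), and Bai2, with 2.73, 1.70 and 1.98 (adjusted p = 0.0334), and not Cd164l2, with 0.419, 0.785 and 0.686 (adjusted p = 0.134). Arrb2 does not check that line's label: it stood at 46.5, 38.9 and 36.6 CPM there, above the 3 wild type libraries.

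**Figure D3:**
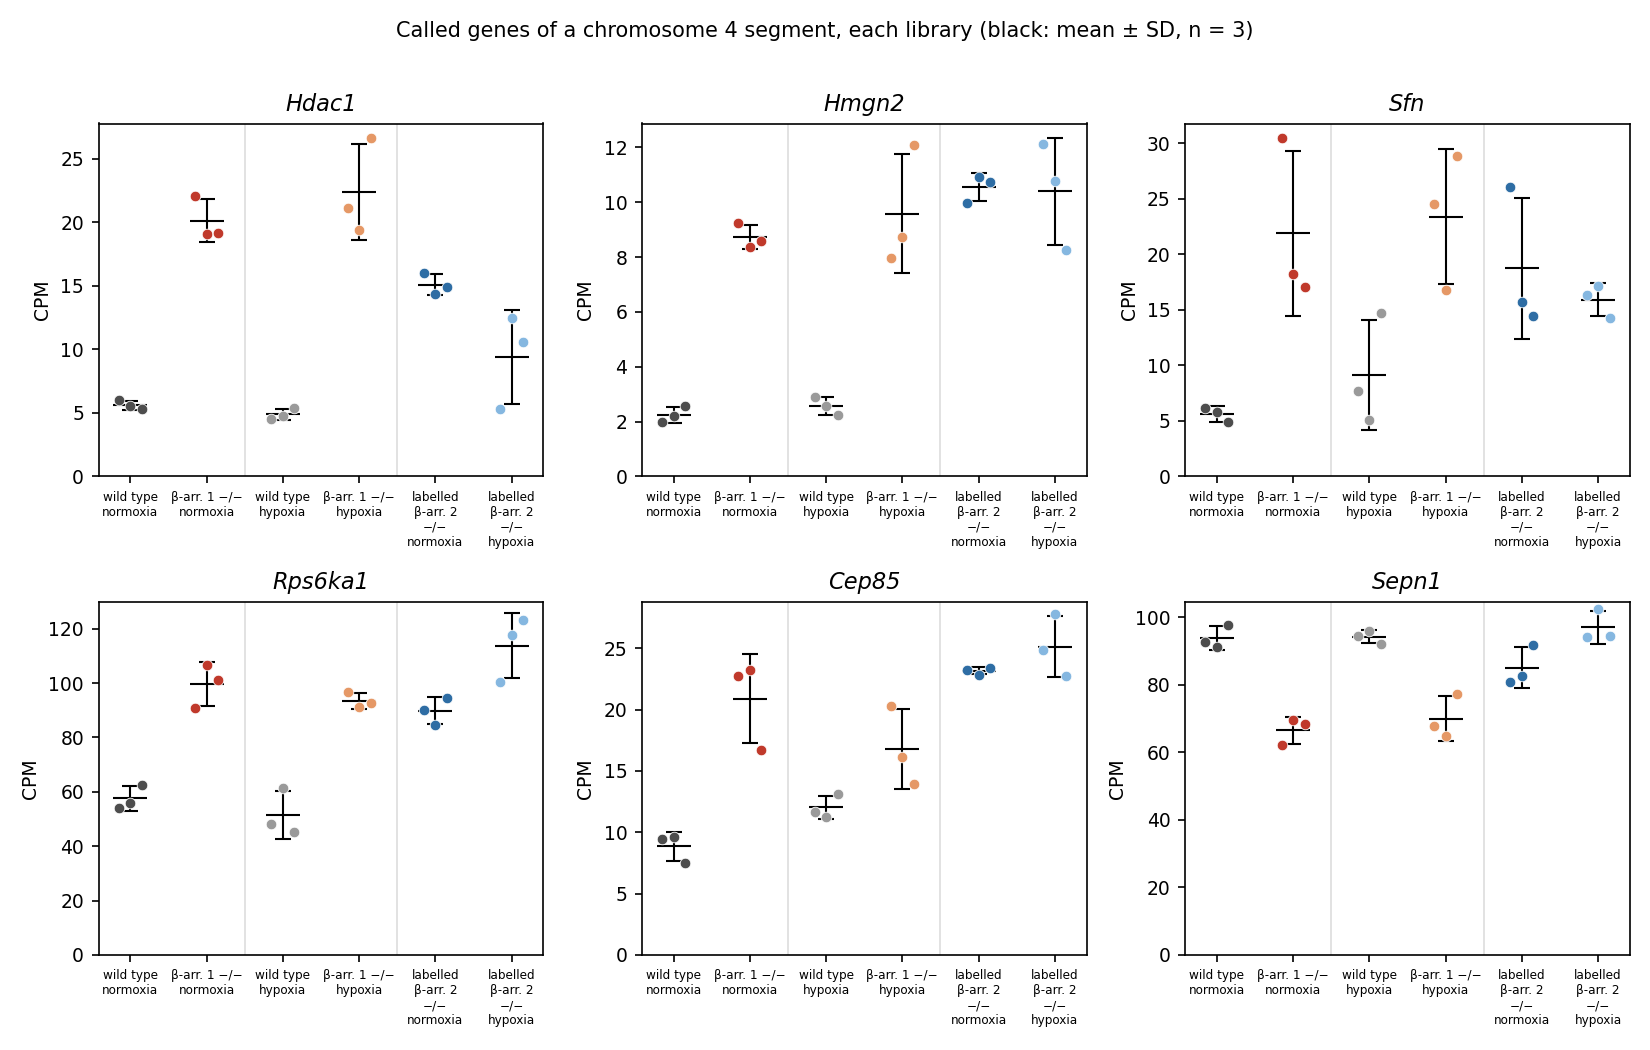
Level in CPM (linear axis from 0) of 6 called genes of the chromosome 4 stretch in each library of the 6 groups. Points are libraries and black marks are means with SD (n = 3). The β-arrestin 1 −/− normoxia libraries lie above wild type for Hdac1, Hmgn2, Sfn, Rps6ka1 and Cep85 and below it for Sepn1.

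The other 2 stretches were on chromosomes 18 and 14. Clustered protocadherins, adhesion molecules best known for giving neurons an identity, contributed a gene in each direction. Pcdhgb8 gave 1.70, 2.25 and 1.90 CPM in wild type and 12.3, 13.9 and 14.9 in β-arrestin 1 −/− (log2 change 2.81 ± 0.29, adjusted p = 0.000103), and 1.39, 1.10 and 2.33 against 9.57, 13.5 and 14.4 in hypoxia. Pcdhb9 gave 8.81, 9.47 and 15.6 CPM in wild type and 3.41, 3.92 and 4.66 in β-arrestin 1 −/− (log2 change -1.50 ± 0.23, adjusted p = 0.00602). Its call was lost without β-arrestin 1 −/− replicate 0 (adjusted p = 0.0686). Both were called in hypoxia too, and neither pair of groups overlapped in either exposure.

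The annotation lists Pcdhgb8 as a transcribed pseudogene, and 50.2% of its 50-base words occur in other genes, mostly Pcdhgb2, so its level is uncertain. The libraries labelled β-arrestin 2 −/− held 3.51, 2.53 and 2.50 CPM of it in normoxia. Of 49 clustered protocadherins tested, 2 were called (0.221% of all genes were), and 5 were higher and 2 lower at an unadjusted p below 0.05 (4.48% and 4.23% of all genes). Their summed level was 647 ± 63.7 CPM in wild type and 645 ± 49.4 in β-arrestin 1 −/− (SD, n = 3). Pcdh20, a protocadherin outside these clusters, fell from 2.38, 3.87 and 2.12 to 0.287, 0.645 and 0.807 CPM (log2 change -2.27 ± 0.44, adjusted p = 0.0437). Its call was lost without any 1 of the 6 libraries (adjusted p from 0.0665 to 0.314).

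On chromosome 14 Slc7a8 and Myh7 lay within 0.272 Mb, and both were higher. Slc7a8, a neutral amino acid transporter, rose from 3.53, 3.44 and 4.95 to 10.1, 10.4 and 9.28 CPM (log2 change 1.32 ± 0.25, adjusted p = 0.0437). Myh7, the myosin heavy chain of slow muscle, rose from 14.5, 17.8 and 19.2 to 65.2, 41.96 and 31.96 (log2 change 1.43 ± 0.27, adjusted p = 0.0398). Neither was called in hypoxia, where the log2 changes were 0.94 ± 0.25 and 1.06 ± 0.27. Either call was lost without a library: that of Slc7a8 without any 1 of the 6 libraries (adjusted p from 0.0665 to 0.233) and that of Myh7 without wild type replicates 0, 1 or 2 or β-arrestin 1 −/− replicates 0 or 1 (adjusted p from 0.0929 to 0.285).

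Myh7 followed Myh6 from library to library in some groups only. In the β-arrestin 1 −/− normoxia libraries both fell from replicate 0 to replicate 2. Myh6 stood at 678, 548 and 219 CPM there, and Myh7 at 65.2, 41.96 and 31.96. Elsewhere they parted. Wild type replicate 1, with 0.765 CPM of Myh6, held 17.8 of Myh7, and the normoxia replicate 0 labelled β-arrestin 2 −/−, with 1599.9 CPM of Myh6, held 20.3. In hypoxia Myh6 stood at 489.9, 293 and 611 CPM in wild type and 69.9, 724 and 78.02 in β-arrestin 1 −/−, while Myh7 stood at 20.4, 29.4 and 18.3 in wild type and 37.99, 53.1 and 50.4 in β-arrestin 1 −/−. The neighbours Myh7 and Myh6 share part of their sequence, with 15.6% of the 50-base words of Myh7 found in Myh6.

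The remaining genes lay apart from one another. Sgcb (chromosome 5, 73632749 to 73647731), the β-sarcoglycan of the dystrophin complex, fell from 68.7, 65.6 and 70.4 to 37.99, 41.5 and 35.4 CPM (log2 change -0.83 ± 0.11, adjusted p = 0.00152). Megf6 (chromosome 4, 154170713 to 154275721, outside the stretch above), a protein with EGF-like repeats, fell from 136, 145 and 151 to 75.1, 85.5 and 91.7 (log2 change -0.78 ± 0.11, adjusted p = 0.00314). Both were called in hypoxia as well, with -0.73 ± 0.11 for Sgcb and -0.63 ± 0.11 for Megf6. Sgcb stood at 82.2, 69.00 and 60.3 CPM in the normoxia libraries labelled β-arrestin 2 −/−, within or above the wild type range for all but replicate 2. Megf6 stood at 99.2, 106 and 109.99 there, below each wild type library.

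Slc45a4 and Fam124a were also lower in normoxia under each setting. Slc45a4, a solute carrier of the sugar transporter family, fell from 43.5, 54.6 and 55.6 to 27.8, 30.5 and 29.8 CPM (log2 change -0.80 ± 0.11, adjusted p = 0.00164). In hypoxia it stood at 27.1, 28.4 and 28.2 in wild type and 24.6, 27.2 and 28.2 in β-arrestin 1 −/−, with a log2 change of -0.07 ± 0.11 and overlapping groups. The difference between exposures had an unadjusted p of 0.000166 and an adjusted p of 0.425. In the normoxia libraries labelled β-arrestin 2 −/− Slc45a4 stood at 29.00, 35.96 and 34.5 CPM, below each wild type library. Fam124a fell from 24.9, 22.95 and 21.8 to 14.04, 12.8 and 13.98 (log2 change -0.77 ± 0.12, adjusted p = 0.00631), with -0.51 ± 0.12 in hypoxia (adjusted p = 0.122). The unnamed gene model 2310007B03Rik fell from 68.2, 69.1 and 61.6 to 37.9, 41.7 and 41.7 CPM (log2 change -0.71 ± 0.11, adjusted p = 0.00857). Its call was lost without β-arrestin 1 −/− replicate 0 (adjusted p = 0.0932).

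Several called genes act in the vessel wall or in signalling. Sele, the E-selectin that activated endothelium shows to leukocytes, rose from 1.01, 0.574 and 0.972 to 4.93, 3.55 and 4.62 CPM (log2 change 2.35 ± 0.37, adjusted p = 0.00857). Ptgs1, the cyclooxygenase COX-1 that begins prostanoid synthesis, fell from 119.6, 141 and 134 to 64.5, 83.8 and 75.5 (log2 change -0.82 ± 0.13, adjusted p = 0.00747). Nt5e, the ectonucleotidase CD73 that makes adenosine, fell from 136, 147 and 138 to 78.6, 89.5 and 87.9 (log2 change -0.72 ± 0.14, adjusted p = 0.0385). None of the 3 overlapped between genotypes. In the normoxia libraries labelled β-arrestin 2 −/− Sele stood at 0.734, 1.13 and 0.686 CPM, Ptgs1 at 78.5, 80.1 and 97.7, below each wild type library, and Nt5e at 81.7, 93.9 and 109, below each wild type library. Their calls were lost without wild type replicate 1 or β-arrestin 1 −/− replicate 0 (adjusted p from 0.0637 to 0.0736) for Sele, without wild type replicate 1 or β-arrestin 1 −/− replicate 0 (adjusted p from 0.0534 to 0.0786) for Ptgs1 and without any 1 of the 6 libraries (adjusted p from 0.1 to 0.285) for Nt5e.

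Receptors and regulators of transcription moved both ways. Fgfr4, a receptor of fibroblast growth factors, rose from 23.8, 23.95 and 26.7 to 46.4, 39.8 and 43.2 CPM (log2 change 0.80 ± 0.15, adjusted p = 0.0385). Esr2, the oestrogen receptor β, fell from 5.23, 6.12 and 7.82 to 2.87, 2.90 and 2.82 (log2 change -1.16 ± 0.21, adjusted p = 0.0289). Etv6, an ETS-family repressor, rose from 41.4, 40.2 and 41.3 to 63.4, 52.9 and 61.4 (log2 change 0.53 ± 0.10, adjusted p = 0.0328). Each of these calls depended on single libraries: that of Fgfr4 was lost without any 1 of the 6 libraries (adjusted p from 0.0848 to 0.243), that of Esr2 without wild type replicates 1 or 2 or β-arrestin 1 −/− replicates 0, 1 or 2 (adjusted p from 0.0854 to 0.195), and that of Etv6 without wild type replicates 0, 1 or 2 or β-arrestin 1 −/− replicates 0 or 2 (adjusted p from 0.104 to 0.243).

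Lower genes of other kinds were Prkcq, Nptx1 and Aspn. Prkcq, the protein kinase C θ of T cells and muscle, fell from 20.5, 17.02 and 20.7 to 10.3, 11.7 and 11.3 CPM (log2 change -0.81 ± 0.15, adjusted p = 0.0286). Nptx1, a neuronal pentraxin, fell from 52.2, 41.4 and 43.8 to 22.1, 21.5 and 28.2 (log2 change -0.94 ± 0.18, adjusted p = 0.0385). Aspn, the matrix proteoglycan asporin, fell from 25.7, 35.2 and 26.7 to 18.03, 16.95 and 16.2 (log2 change -0.78 ± 0.14, adjusted p = 0.0338). Their calls were lost without wild type replicates 0 or 2 or β-arrestin 1 −/− replicates 0, 1 or 2 (adjusted p from 0.0907 to 0.216) for Prkcq, without wild type replicates 0, 1 or 2 or β-arrestin 1 −/− replicates 0 or 1 (adjusted p from 0.0775 to 0.275) for Nptx1 and without wild type replicates 1 or 2 or β-arrestin 1 −/− replicates 0, 1 or 2 (adjusted p from 0.0665 to 0.199) for Aspn.

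The genotype difference was then set beside that in hypoxia, which rests on 6 separate libraries, though 1 fit estimated the spread for both. In hypoxia 31 genes were called (0.201%), 13 higher (0.0845%) and 18 lower (0.117%). The exposures had 14 called genes in common, 5 higher and 9 lower in both, which is 41.2% of the normoxia calls and 45.2% of the hypoxia calls. Of these 14, 11 lie on chromosomes 4 and 7. Of the 34 normoxia genes, 32 had the same sign in hypoxia, where 56.9% of all genes tested did, and 28 of them had an unadjusted p below 0.05 there, where 11.3% of all genes did.

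For the 20 genes called in normoxia and not in hypoxia the hypoxia change was the smaller in every case. That pattern alone does not show a difference between exposures, since genes were chosen by their normoxia value. A test of the difference itself called 0 genes in edgeR (898 at an unadjusted p below 0.05, or 5.84%), and DESeq2 called 9. Of the 20 genes, 7 had an unadjusted p below 0.05 for the difference. The normoxia values that chose these 20 genes also enter that test, so this count cannot show a difference between exposures.

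Sele and Etv6 were the 2 called genes with opposite signs. In hypoxia Sele stood at 1.30, 0.762 and 0.688 CPM in wild type and 0.504, 0.785 and 0.313 in β-arrestin 1 −/−, overlapping, with a difference between exposures of -3.08 ± 0.55 on the log2 scale (adjusted p = 0.352). Etv6 stood at 46.8, 51.5 and 53.1 CPM in wild type and 48.98, 51.01 and 44.9 in β-arrestin 1 −/− in hypoxia, also overlapping. Among the smallest p for the difference were also those of Hpgd, Fer1l4 and Cdhr1, all with an adjusted p above the threshold. Hpgd, the enzyme that inactivates prostaglandins, stood at 1248, 1114 and 1053 CPM in wild type and 631, 792 and 629.96 in β-arrestin 1 −/− in normoxia, and at 536, 458 and 299 in wild type and 674, 575 and 734 in β-arrestin 1 −/− in hypoxia (difference 1.35 ± 0.26, adjusted p = 0.407). The genotypes did not overlap in either exposure, with wild type higher in normoxia and lower in hypoxia.

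**Figure D4:**
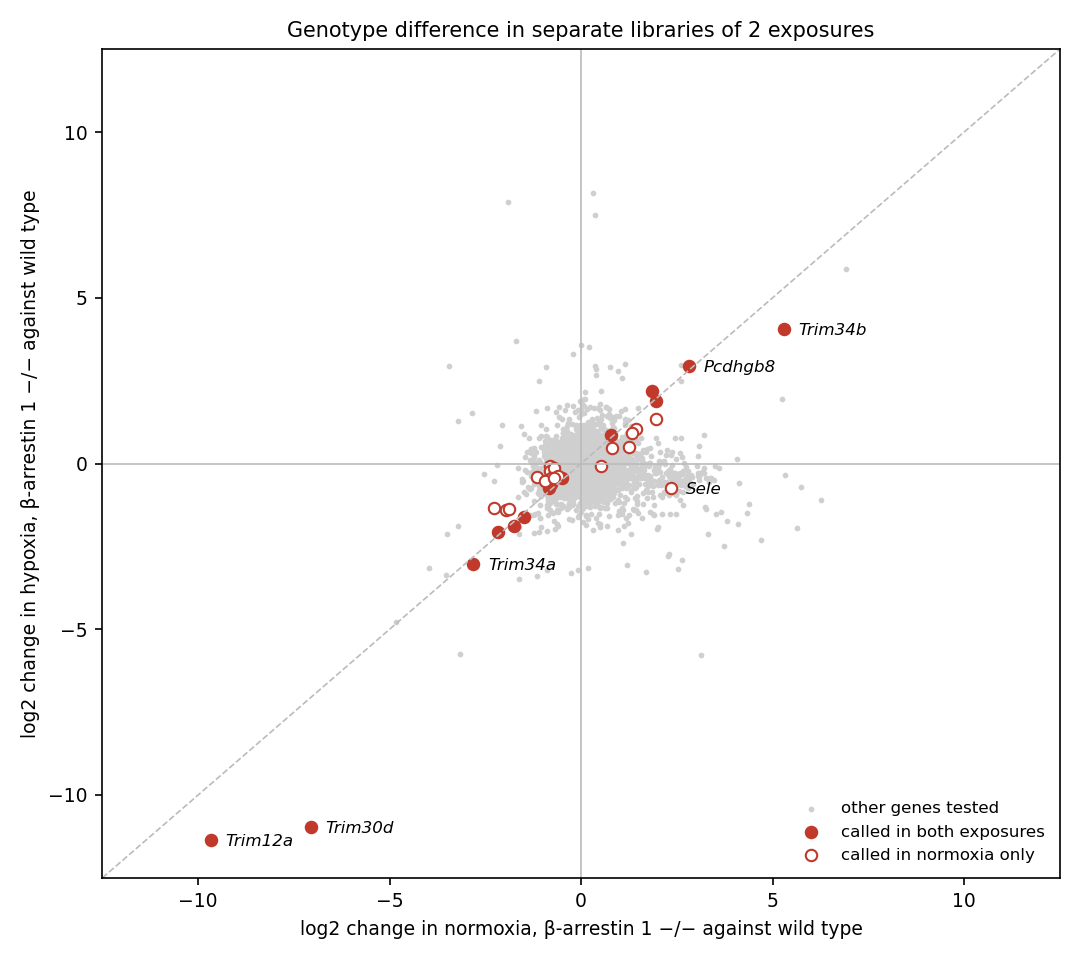
Log2 change of each gene tested, β-arrestin 1 −/− against wild type, in normoxia (horizontal) and in hypoxia (vertical). Filled red points are the 14 genes called in both exposures, open red points the 20 called in normoxia only, grey points all others, and the dashed line marks equal change. The filled points lie near the line except Trim12a, Trim30d and Trim34b, which have few or no fragments in either wild type or β-arrestin 1 −/−. Trim30d is farthest from it, at -7.05 in normoxia and -10.97 in hypoxia. Sele lies below the horizontal axis.

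Heat shock and chaperone genes, which fold new and damaged proteins, were higher as a group without a gene of the list being called in normoxia. Of 39 genes tested 0 were called, and 23 had an unadjusted p below 0.05, all 23 higher in β-arrestin 1 −/−, where 4.48% of all genes tested were higher at that level. The median log2 change was 0.39, against 0.00 over all genes, and for 30 of the 39 all β-arrestin 1 −/− libraries lay above all wild type libraries, as for 10.8% of all genes. Summed over the list, the level was 10163, 11682 and 9515 CPM in wild type and 14663, 13332 and 13199.5 in β-arrestin 1 −/−, so the genotypes did not overlap. The list had been chosen with earlier results of these data known.

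Members of the cytosol and mitochondria had the larger changes, with a median of 0.60 over 19 genes, and those of the endoplasmic reticulum a median of 0.29 over 14. Hsp90ab1, the constitutive HSP90, stood at 1971, 2471 and 1766 CPM in wild type and 3128, 2841 and 2752 in β-arrestin 1 −/− (0.49 ± 0.15, unadjusted p = 0.00494, adjusted p = 0.276). Stip1, the adaptor between HSP70 and HSP90, stood at 156, 197 and 124 CPM in wild type and 324, 254 and 237 in β-arrestin 1 −/− (0.77 ± 0.22, adjusted p = 0.235). Hspa1b, an inducible HSP70, varied widely, at 20.5, 45.8 and 11.1 CPM in wild type and 171, 70.1 and 58.7 in β-arrestin 1 −/−, and had an adjusted p of 0.58. Its sequence is nearly that of its neighbour Hspa1a, so the split of reads between them is uncertain. The number at an unadjusted p below 0.05 was 15 of 39 without β-arrestin 1 −/− replicate 0 and 13 of 39 without wild type replicate 2.

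In the endoplasmic reticulum, Hspa5, the chaperone BiP, stood at 853, 1021 and 806 CPM in wild type and 1327, 1197 and 1274 in β-arrestin 1 −/− (0.50 ± 0.17, adjusted p = 0.331). Pdia6, a disulfide isomerase, stood at 412, 419 and 381 CPM in wild type and 478, 507 and 512 in β-arrestin 1 −/− (0.31 ± 0.08, adjusted p = 0.163). Sdf2l1, a partner of BiP, came nearest to the threshold, at 24.5, 33.04 and 30.98 CPM in wild type and 44.02, 48.8 and 50.4 in β-arrestin 1 −/− (0.69 ± 0.15, adjusted p = 0.0864). None of these 3 overlapped. The 6 regulators of the list had a median of 0.21, with 1 higher and 0 lower at an unadjusted p below 0.05. The stress regulators Trib3 (-0.01 ± 0.21) and Chac1 (0.01 ± 0.24) had changes near 0.

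In the hypoxia libraries the list had a median of 0.36, with 14 of 39 genes higher and 0 lower at an unadjusted p below 0.05, where 6.8% of all genes tested were higher and 4.5% lower. For 9 of the 39 all β-arrestin 1 −/− libraries lay above all wild type libraries there, as for 4.82% of all genes. Hspb1, a small heat shock protein, and Pdia6 were called there, with log2 changes of 1.44 ± 0.26 (SE, adjusted p = 0.0341) and 0.42 ± 0.08 (SE, adjusted p = 0.047). The summed level in hypoxia was 11196, 9043 and 9630.2 CPM in wild type and 14422, 11414 and 13283 in β-arrestin 1 −/−, again without overlap. In the normoxia libraries labelled β-arrestin 2 −/− it was 10534, 9426 and 10084, with no library above the highest wild type library. In normoxia the tissue score moved with genotype, as given above. With it as a covariate, the 23 genes higher in normoxia at an unadjusted p below 0.05 became 16 of the 39. The normoxia median was then 0.45, against 0.39 without the score.

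**Figure D5:**
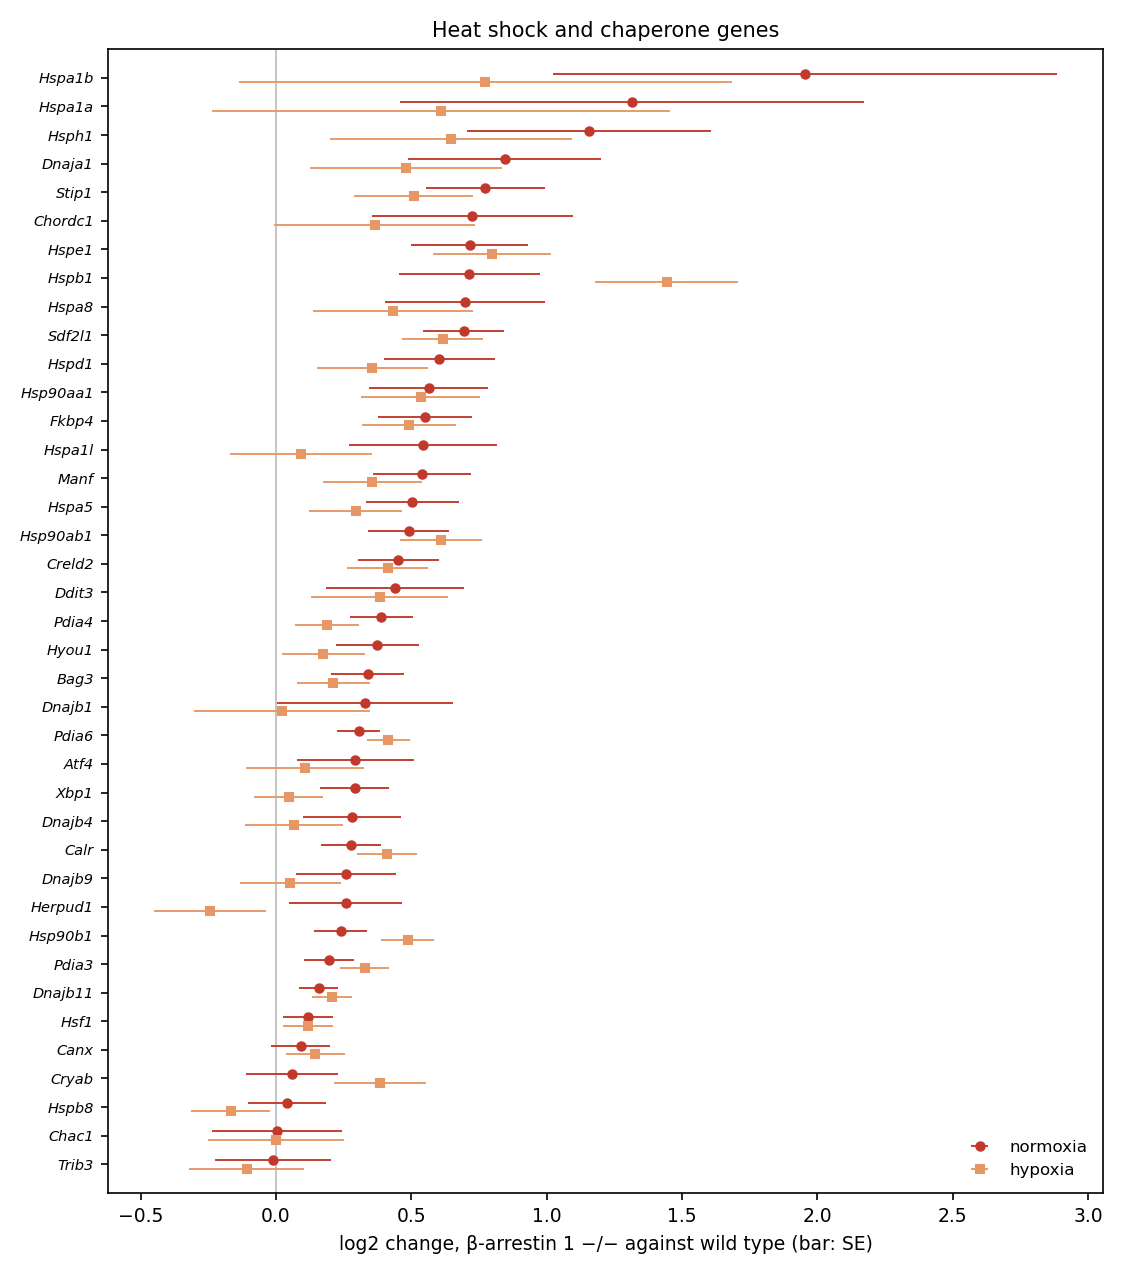
Log2 change with SE of each of 39 heat shock and chaperone genes, β-arrestin 1 −/− against wild type, in normoxia (red circles) and hypoxia (orange squares), ordered by the normoxia change. Of the 39, 38 have a normoxia change above 0, with a median of 0.39, and the widest error bars are those of Hspa1a and Hspa1b.

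Because these genes were high together, the 250 bases before each gene's start in RefSeq (GRCm38.p6) were searched for the motifs through which they are known to be induced, on both strands. A heat shock element, the site of HSF1, was searched as GAANNTTC or TTCNNGAA and was found in 9 of the 32 list genes, of 39, with a promoter in the table and in 12.8% of all 32851 promoters. The ER stress element, the site of ATF6, was searched as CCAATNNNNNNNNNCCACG or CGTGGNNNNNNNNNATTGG and was found in 6 of the 32 and in 0.113% of all promoters. Matches are shown for genes of each group with 20 bases on each side, 5′ to 3′ on the gene's own strand, with the fixed bases of each match in capitals. A match describes these letters only.

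The heat shock element matches of Hspb1 (plus strand, chr5:135887782-135887849), Hspe1 (plus strand, chr1:55088039-55088096), Dnaja1 (plus strand, chr4:40722324-40722371) and Hspa1b (minus strand, chr17:34959315-34959362) read as follows.
Hspb1: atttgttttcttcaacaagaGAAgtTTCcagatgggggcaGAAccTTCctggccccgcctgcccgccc
Hspe1: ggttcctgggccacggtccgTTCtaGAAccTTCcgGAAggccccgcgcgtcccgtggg
Dnaja1: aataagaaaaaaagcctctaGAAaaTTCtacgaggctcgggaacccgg
Hspa1b: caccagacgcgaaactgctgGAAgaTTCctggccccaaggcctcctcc
Hspe1 encodes the mitochondrial co-chaperonin HSP10 and shares this stretch, read from the other strand, with its neighbour Hspd1, which encodes HSP60. The 3 matches of this stretch overlap one another.

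The ER stress element matches of Hspa5 (plus strand, chr2:34772005-34772063), Pdia6 (plus strand, chr12:17266471-17266529) and Creld2 (plus strand, chr15:88819500-88819558) read as follows.
Hspa5: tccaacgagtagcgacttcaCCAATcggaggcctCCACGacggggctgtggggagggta
Pdia6: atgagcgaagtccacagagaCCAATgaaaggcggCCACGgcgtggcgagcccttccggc
Creld2: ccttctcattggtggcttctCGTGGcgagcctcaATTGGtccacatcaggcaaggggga
The match of Creld2 is in the reverse direction. The 9 genes with a heat shock element match had a median log2 change of 0.72 in normoxia and 0.61 in hypoxia, and 6 of them were higher at an unadjusted p below 0.05 in normoxia. The 6 genes with an ER stress element match had medians of 0.29 and 0.41, with 5 of 6 higher at that level. Over all genes tested 4.48% were higher at that level. With or without a match, 11 of the 19 cytosolic and mitochondrial genes were higher at that level, with a normoxia median of 0.60. So were 11 of the 14 genes of the endoplasmic reticulum, with a median of 0.29. Whether a match goes with a larger change was not tested.

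Of 38 lists of pathway and cell type genes, 34 held no called gene in normoxia. Cardiac muscle held 1, Myh7, and 30 of its 38 genes were higher at an unadjusted p below 0.05, with a median of 2.51. Without wild type replicate 1 that number was 8 and the median 1.99, and in hypoxia the median was -0.39.

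Other cell types moved less. Alveolar type 1 cells, the flat cells of gas exchange, had 8 of 19 genes lower at an unadjusted p below 0.05 (4.23% of all genes were lower) and a median of -0.34, with Gprc5a at 1048, 983 and 945 CPM in wild type and 672, 763 and 709.9 in β-arrestin 1 −/− (adjusted p = 0.181). Their summed level was 18083, 18989.9 and 17297 CPM against 14295, 15384 and 15215, without overlap in normoxia. For 16 of the 19 genes the groups were apart in that direction, as for 11.8% of all genes. In hypoxia 0 of the 19 passed an unadjusted p below 0.05. With the tissue score 1 of the 19 was lower at that level, and without wild type replicate 1 it was 3. T and NK cell genes had 9 of 39 higher at that level (4.48% of all genes were higher), with a median of 0.54, which became 4 of 39 without wild type replicate 1 and 5 without β-arrestin 1 −/− replicate 0, and in hypoxia the median was 0.02. Adipocyte genes had a median of 0.62 with 5 of 24 higher at that level, 1 without either of those libraries. Airway secretory genes had a median of 0.28 with 9 of 28 higher and 1 lower, 2 higher without β-arrestin 1 −/− replicate 0. In hypoxia both medians were below 0, at -0.29 for adipocyte and -0.41 for airway secretory genes. Of the airway secretory genes 0 were higher and 7 lower there at an unadjusted p below 0.05, where 6.8% and 4.5% of all genes were.

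The lists closest to β-arrestin function held 1 called gene besides Arrb1, with shares at an unadjusted p below 0.05 on either side of the 8.71% of all genes. Of 46 partners of β-arrestins, such as clathrin, AP-2, Src and ERK pathway genes, 0 were called and 2 had an unadjusted p below 0.05 (4.35%), with a median of -0.03. Of 16 regulators of G protein signalling 0 were called and 3 were lower at an unadjusted p below 0.05 (18.8%). Of 34 G protein subunits and adenylyl cyclases 0 were called, with 3 higher and 2 lower (14.7%). Of 51 receptors, ligands and enzymes of vessel tone, Ptgs1 was the only gene called, with 3 higher and 8 lower at an unadjusted p below 0.05 (21.6%), or 0 higher and 5 lower without β-arrestin 1 −/− replicate 0. Of 42 HIF targets and glycolysis genes 0 were called, with 4 higher and 1 lower, and of 50 interferon-stimulated genes 0 were called, with 5 higher and 4 lower.

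In the authors' deposited table of Cuffdiff comparisons 616 of the genes tested here passed a q-value of 0.05 for this contrast, which is 4% of 15384 with a value. Of the 34 genes called here, 30 passed there in the same direction. The 4 that did not in the authors' deposited table were Trim12a (q = 0.619), Pcdhgb8 (q = 0.631), Pcdhb9 (q = 0.773) and Aspn (q = 0.631). For Trim12a, the 3 wild type libraries held 1072 fragments and the 3 β-arrestin 1 −/− libraries 1.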

How the data were processed

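RNA of whole mouse lung was sequenced as 18 libraries in 6 groups of 3, and groups came from the sample titles. The submitters' processing notes name FastQC, TopHat, Cuffdiff and mm10; their versions, the annotation and any filters are not given in the sources used. The authors deposited an expected count (Cuffdiff's estimated count of fragments) and FPKM per gene and library, with p-values and q-values of the authors' own Cuffdiff comparisons in the authors' deposited table, whose test statistic is a score that the authors' Cuffdiff run wrote. Of the deposited counts 93.3% were whole numbers, and all were rounded. Of 23356 features, 5 with too much data for Cuffdiff to estimate were left out. The kit marks no strand as far as the labels say, so reads of a gene and its antisense partner cannot be told apart.

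Counts were scaled by TMM, filtered with filterByExpr and fitted in edgeR 4.0.16 (R 4.3.3) as 6 groups, with the quasi-likelihood test and Benjamini-Hochberg adjustment over 15388 genes. A gene is called at an adjusted p below 0.05, and B1N minus WTN is the contrast. Alternatives used DESeq2 1.42.0, limma 3.58.1 on FPKM on a log2 scale with a pseudocount of 1 or 0.1, other scalings and filters, fewer libraries, the replicate number as a block, a tissue score and leaving out each library in turn. On data simulated for this contrast over 15388 genes, 20% of 1.5-fold, 68% of 2-fold, 90% of 4-fold and 90% of 8-fold changes were recovered, and 3.6% of calls were false. Each gene was drawn independently, without the tissue difference between groups seen here. The 3.6% therefore does not measure the share of false calls in these libraries. Between replicates of a group the chi-square per degree of freedom was 9.97 to 20.3, and no pair of libraries was identical. Counting intervals (exact Clopper-Pearson) and floors cover counting error only. Shared sequence was counted as 50-base words of GENCODE M21 transcripts, and promoters came from the RefSeq table of GRCm38.p6. Figures were drawn with matplotlib 3.10.9.

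The genes and lists were chosen with earlier results of these data known. The rule named Arrb1 and Arrb2, the 10 highest and 10 lowest called changes at a mean log2 CPM of at least 1, the 10 smallest p, up to 4 called members of each list, called genes within 10 Mb of Arrb1, genes called in both exposures, and, with none called, the 5 smallest p for the difference of exposures. 1 of those is not reported here. Outside that rule, and after their values were seen, Megf6, Fam124a, 2310007B03Rik, Cd164l2, Sepn1, Galnt18, Bai2, Etv6, Aspn, Nt5e and Pcdh20 were named to complete the 34, as were genes named for context. The comparisons with the libraries labelled β-arrestin 2 −/−, the stretches and the motif search were also added after the data were seen.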

Additional observations from a re-analysis of the deposited data

How the results depend on the processing

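The 34 genes called in normoxia became 176 in DESeq2 (80 higher, 96 lower), 109 with only the 6 libraries compared, and 18 with the tissue score (9 higher, 9 lower), and from 15 to 30 with 1 library left out, 15 being without β-arrestin 1 −/− replicate 0. The 31 called in hypoxia became 17 with 12 libraries, 12 with 6, 154 in DESeq2 and 20 with the tissue score, and from 20 to 34 with 1 library left out. The difference of exposures, with 0 called, had 1 with 12 libraries, 9 in DESeq2 and 2 in limma without a filter. The 14 called in both exposures became 8 with 6 libraries each and 37 in DESeq2. The 23 chaperone genes became 13 to 23 with 1 library left out. Arrb1 ran from -2.27 to -2.07 with 1 library left out. With the replicate number as a block 32 genes were called in normoxia, and 8 of the 33 besides Arrb1 lost their call. Same-numbered wild type and β-arrestin 1 −/− libraries deviated together with correlations of 0.176, -0.0751 and 0.00550, and 2 of 6 libraries were closest to their own number, so the number was not taken to pair them. The causes were not tested. The counts in both exposures and of chaperone genes were chosen after seeing the data.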

Other observations

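Endothelial markers differed in both directions in normoxia without a call there. Of 37 tested, 5 were higher and 7 lower at an unadjusted p below 0.05, where 4.48% and 4.23% of all genes were. In hypoxia 1 of the 37 was called higher and 1 lower. At an unadjusted p below 0.05, 10 were higher and 2 lower in hypoxia, where 6.8% and 4.5% of all genes were. Vwf, the clotting factor carrier of larger vessels, stood at 1029.8, 1022 and 998 CPM in wild type and 549, 659 and 652 in β-arrestin 1 −/− (log2 change -0.71 ± 0.16, adjusted p = 0.101), and its hypoxia change was -0.89 ± 0.16. Lyve1, the hyaluronan receptor of lymphatic vessels, is also in the list of monocytes and interstitial macrophages and lies 11.2 Mb from Arrb1. It stood at 816, 1033 and 913 and 502, 633 and 644 CPM (log2 change -0.63 ± 0.16, adjusted p = 0.153), with -0.80 ± 0.16 in hypoxia. Car4, the carbonic anhydrase of alveolar capillaries, stood at 293, 239 and 234 and 324, 332 and 339 CPM (log2 change 0.38 ± 0.11, adjusted p = 0.212), with 0.86 ± 0.11 in hypoxia. The genotypes did not overlap for any of the 3 in normoxia. The number of endothelial genes at an unadjusted p below 0.05 in normoxia became 2 higher and 3 lower without β-arrestin 1 −/− replicate 0 or with the tissue score.

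Among genes of vessel tone that were not called, Ece1, the enzyme that makes endothelin, stood at 961, 780.02 and 931 CPM in wild type and 551, 607 and 643 in β-arrestin 1 −/− (log2 change -0.57 ± 0.13, adjusted p = 0.0985), without overlap. Slc6a4, the serotonin transporter, stood at 6.10, 7.03 and 6.81 and 3.98, 5.11 and 4.44 CPM (log2 change -0.56 ± 0.19, adjusted p = 0.323), with 0.13 ± 0.19 in hypoxia. On chromosome 7 Olfml1, an olfactomedin-like protein, stood at 15.96, 15.9 and 20.02 and 23.8, 24.8 and 31.2 CPM (log2 change 0.62 ± 0.14, adjusted p = 0.0985). These genes were picked after their values were seen.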
